A study of Drosophila melanogaster with 48 samples.

Results

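The proteasome subunit genes are the protein-coding genes whose symbol in the RefSeq annotation of the fly genome (build dm6) begins with Prosalpha, Prosbeta, Rpn or Rpt and a digit. There are 48 of them among the 13922 protein-coding genes on the 6 chromosome arms that hold peaks. They were chosen by name. The proteasome is the protease that degrades proteins tagged with ubiquitin. Its core is a barrel of alpha rings, which gate the entry, and beta rings, of which some subunits carry the cutting sites. A regulatory particle caps the barrel: its Rpt subunits form a ring of ATPases that unfolds the substrate, and its Rpn subunits hold the scaffold, bind ubiquitin or remove it. In animals these genes are known to be expressed in nearly all cells and to be raised together by the cap'n'collar (cnc) transcription factor family when proteasome activity is short.

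The series has 48 samples, 42 from S2 cells and 6 from brains of third-instar larvae of Drosophila melanogaster. No list from S2 cells or from the brain samples with control IgG was used. The assay was CUT&RUN, in which a nuclease tethered to an antibody releases the DNA around a bound protein. The values here come from the 4 brain samples with an antibody against Zelda (Zld), a pioneer factor that binds closed chromatin in the early embryo, as 1 deposited peak list for each of 2 conditions with 2 replicates. The first condition is titled brat, after brat, a repressor of translation, and brains without it fill up with type II neuroblasts, a class of neural stem cell. The second is titled UAS-HA-Zld, after a tagged Zld under Gal4 control. All 4 samples carry the same genotype label, which lists brat11 over a deficiency (DF), Tub-Gal80ts, the UAS-HA-Zld transgene and WorGal4, so they share the brat mutation in that label, and the difference between the conditions rests on the titles alone. In that label, WorGal4 drives expression in neuroblasts and Gal80ts blocks Gal4 at low temperature. Larvae grew at 18°C and were kept at 33°C for the last 24 h. The cell type label names type II neuroblasts, but each reaction used 50 pooled whole brains, so a change in the share of cells bound and a change in binding per cell cannot be told apart, and the cell type could not be checked because peak lists hold no expression values. With 1 list per condition there was no replicate spread, and no test between conditions was made.

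A summit is the base of highest signal in a peak, and a gene was counted when a summit lay inside it or within 500 bp of either end. There were 13826 summits in the list of brat and 16252 in that of UAS-HA-Zld. Fold enrichment at a summit is the value of the authors' peak caller, a pileup of fragments over the local background, and it ranks summits only within its own list. The pileup itself was recovered as a whole number of fragments for 100% of summits. To set the lists side by side, a pileup was divided by the genome-wide background of its list (22.6 fragments for brat, 28.8 for UAS-HA-Zld) and is then called the scaled pileup. Peaks are numbered in order, and each list skips 19.5% of its numbers, so some called peaks are not analysed here. Such a number was absent between the peaks on either side of the gene, in at least 1 list, for 34 of the 48 subunit genes. A count of genes without a summit is therefore a count in the peaks analysed.

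Zld summits were found at 13 of the 48 proteasome subunit genes in brat and at 11 in UAS-HA-Zld. The subunit genes' shares were 27.1% (Wilson 95% interval 16.6 to 41.0) and 22.9% (13.3 to 36.5). Of all protein-coding genes, 34.0% had a summit in brat and 32.3% in UAS-HA-Zld. Subunit genes are short, 881 to 4500 bp with a median of 1381.5 bp, and a short gene offers a smaller window. Among the 7973 protein-coding genes in that length range the shares were 26.9% and 25.5%, close to those of the subunit genes. The shares of the subunit genes were thus near the background, and all intervals cover counting error only.

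A summit in both lists was found at 9 subunit genes, or 18.8%, against 27.1% of all protein-coding genes and 19.9% of those in the length range. They are Prosalpha2, Prosalpha3 and Prosalpha6 of the alpha ring, Prosbeta2, Prosbeta7 and the duplicated gene Prosbeta2R2 of the beta ring, Rpt3 of the ATPase ring, and Rpn8 and Rpn12 of the lid of the regulatory particle. A summit in the brat list alone was found at 4, Prosalpha4, Rpt2, Rpn6 and Rpn13, which is 8.33% against 6.92% of all protein-coding genes. A summit in the UAS-HA-Zld list alone was found at 2, Prosbeta3 and Prosbeta5, which is 4.17% against 5.21%. The remaining 33 had none in either list. For 7 of these 33, Prosalpha5, Prosalpha7, Prosbeta4, Prosbeta5R2, Rpn10, Rpn11 and Rpt6R, no peak number was absent around the gene in either list.

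**Figure D1:**
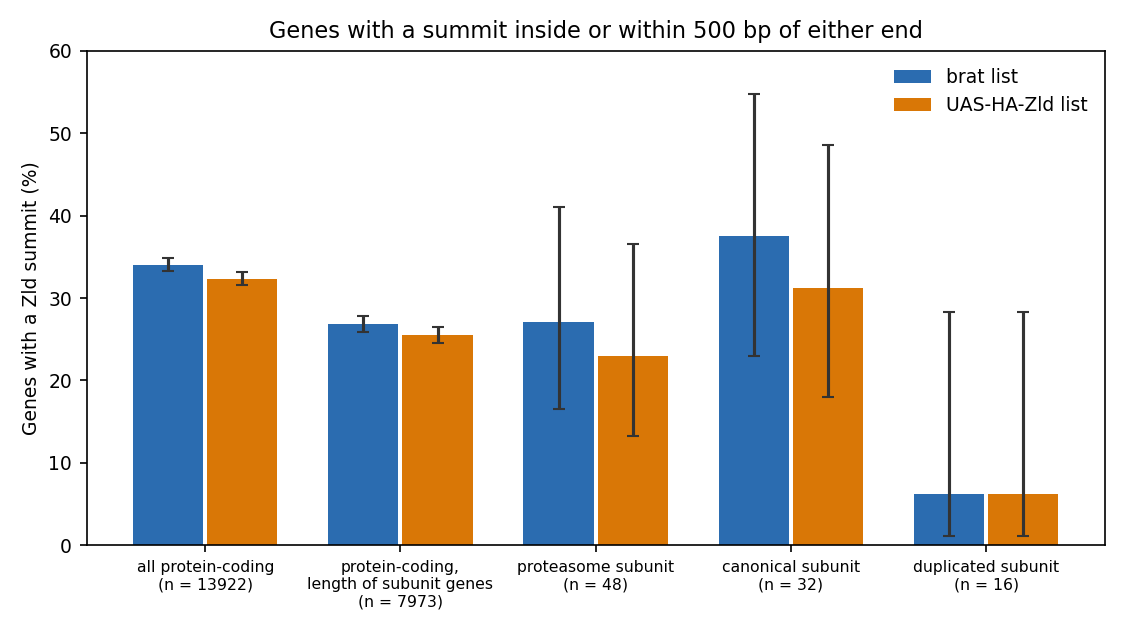
Percentage of genes with a Zld summit inside the gene or within 500 bp of either end, in the brat list (blue) and the UAS-HA-Zld list (orange), for 5 sets of genes; error bars are Wilson 95% intervals. The subunit genes, at 27.1% and 22.9%, lie close to protein-coding genes of the same length range, and the duplicated subunit genes are the lowest set at 6.25% in each list.

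Canonical and duplicated subunit genes differed in their counts. Several subunits of the fly have a second, related gene, marked by a T or R in the symbol, and many of these copies are known for expression in the male germ line. A summit was found at 12 of the 32 canonical genes in brat (37.5%, interval 22.9 to 54.7) and at 10 in UAS-HA-Zld (31.3%, 18.0 to 48.6). Of the 16 duplicated genes, 1 had a summit, in both lists (6.25%, 1.11 to 28.3). The intervals of canonical and duplicated genes overlap, and the difference was not tested. For all protein-coding genes the brat share was 34.0% and the UAS-HA-Zld share 32.3%. Both canonical intervals cover these values. They are wide, and they also cover the lower shares of protein-coding genes in the length range of the subunit genes. The interval of the duplicated genes lies below the shares of all protein-coding genes. It does cover the shares of protein-coding genes in the length range of the subunit genes, 26.9% for brat and 25.5% for UAS-HA-Zld.

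The exception was Prosbeta2R2, a copy of Prosbeta2 (3R, 5217751 to 5219528). Its summit lay outside the gene, 446 bp away in brat and 444 bp in UAS-HA-Zld, and 151 and 149 bp from an end of cno, which encodes the cell junction protein Canoe. No copy had a summit inside the gene itself.

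Distances to the nearest summit showed the same order. The median was 1555 bp for canonical and 14316.5 bp for duplicated genes in brat, and 1257 and 14273.5 bp in UAS-HA-Zld. The farthest was Prosalpha3T, whose nearest summit was 61186 bp away in brat and 61185 bp in UAS-HA-Zld. A peak number was absent around 14 of the 16 duplicated genes in at least 1 list, and Prosbeta5R2 and Rpt6R were the exceptions. Over all 48 subunit genes the count was 34. The stretch searched runs between the flanking peaks, so it is longer for a gene far from any peak. Of the copies of alpha subunits, Prosalpha1R, Prosalpha3T, Prosalpha4T1, Prosalpha4T2 and Prosalpha6T had no summit in either list. The same held for Prosbeta2R1, Prosbeta4R1, Prosbeta4R2, Prosbeta5R1 and Prosbeta5R2 of the beta ring, and for Rpt3R, Rpt4R, Rpt6R, Rpn12R and Rpn13R of the regulatory particle.

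**Figure D2:**
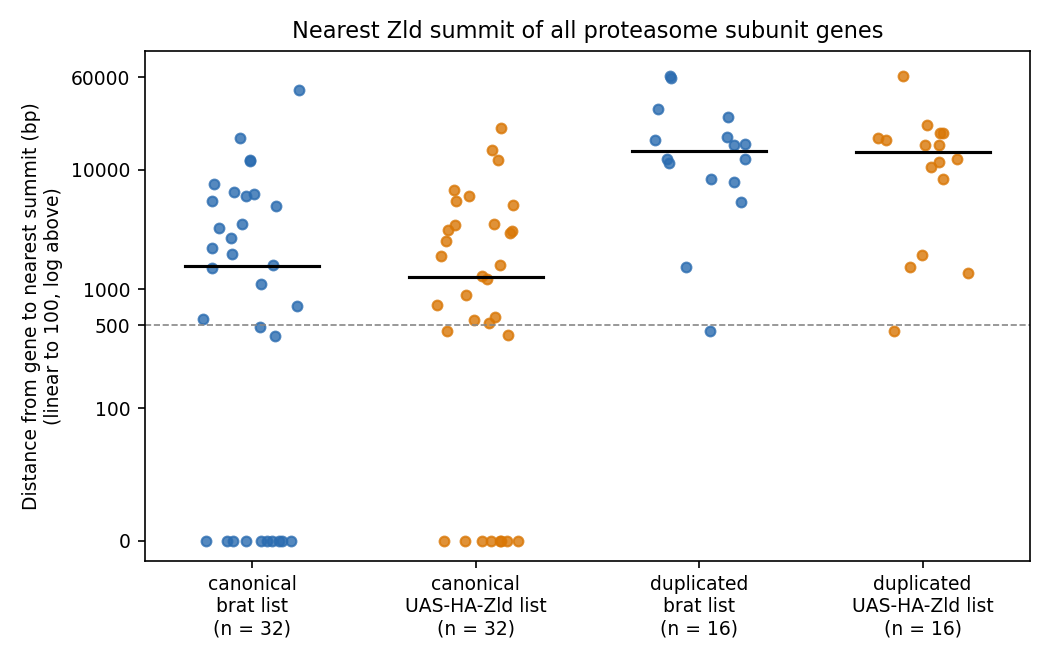
Distance in bp from each of the 48 subunit genes to its nearest Zld summit, with 0 for a summit inside the gene, on an axis that is linear to 100 bp and logarithmic above; points are genes, black bars are medians, and the dashed line is 500 bp. Duplicated genes lie farther from a summit, with medians of 14316.5 and 14273.5 bp against 1555 and 1257 bp for canonical genes.

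In brat the alpha ring held the summits with the highest folds of the core. Among its 7 canonical genes 4 had a summit in brat (57.1%, interval 25.0 to 84.2) and 3 in UAS-HA-Zld (42.9%, 15.8 to 75.0). These intervals cover the shares of all protein-coding genes, 34.0% and 32.3%. Prosalpha3 (2R, 20994900 to 20996118) had the highest fold of all subunit genes in brat. Its main summit had a fold of 28.2 and a pileup of 1191 fragments (exact Poisson 95% interval 1124 to 1261) in brat, rank 81 of 13826 by fold. In UAS-HA-Zld the fold was 6.76 and the pileup 406 fragments (367 to 447), rank 2852 of 16252. The summits of the lists lay 2 bp apart, 444 and 442 bp outside Prosalpha3 and inside the neighbouring gene CG10543, whose end was nearer at 342 and 340 bp. Scaled to the genome-wide background the pileups were 52.7 and 14.1, a ratio of 3.74 of brat to UAS-HA-Zld. A second, weak summit in brat lay inside Prosalpha3, 81 bp from its end, with a fold of 1.76.

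Prosalpha6 (2L, 10221351 to 10222546) had 3 summits in each list, and they lay at the same places within 13 bp. The summit outside the gene had a fold of 17.4 in brat (451 fragments, 410 to 495) and 6.36 in UAS-HA-Zld (236 fragments, 207 to 268). It stood 187 and 182 bp from Prosalpha6 and 52 and 47 bp from an end of Npc1a, which encodes a sterol transport protein. The 2 summits inside the gene had folds of 8.86 and 5.23 in brat and 5.04 and 3.30 in UAS-HA-Zld. All 3 had a higher scaled pileup in brat, 2.44, 1.55 and 1.44 times that in UAS-HA-Zld. The strongest summit by q-value was the outer one in brat and the one 164 bp inside Prosalpha6 in UAS-HA-Zld.

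Prosalpha2 and Prosalpha4 had weaker summits. Prosalpha2 (3R, 12431321 to 12432556) had 1 summit inside the gene, 141 bp from its end in brat and 136 bp in UAS-HA-Zld, with folds of 3.01 and 3.0 and pileups of 120 (99.5 to 143) and 173 fragments (148 to 201). Among the alpha subunit genes, Prosalpha2 was the one where the nearest gene end to the strongest summit was its own in both lists. A further summit at Prosalpha2, inside CG5245, had folds of 2.46 and 2.37. Prosalpha4 (X, 16276270 to 16277587) had a summit in brat 484 bp away, nearest to kat80, the gene of a katanin subunit, with a fold of 3.75 and 103 fragments. In UAS-HA-Zld its nearest summit lay 519 bp away with a fold of 2.15, just outside the 500 bp window, and had its nearest gene end at eas. These summits lay on opposite sides of Prosalpha4, 2320 bp apart, and 2 peak numbers were absent around the gene in UAS-HA-Zld. Prosalpha1, Prosalpha5 and Prosalpha7 had none, with the nearest summit 2225, 5470 and 12144 bp away in brat and 14646, 5455 and 12206 bp in UAS-HA-Zld.

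**Figure D3:**
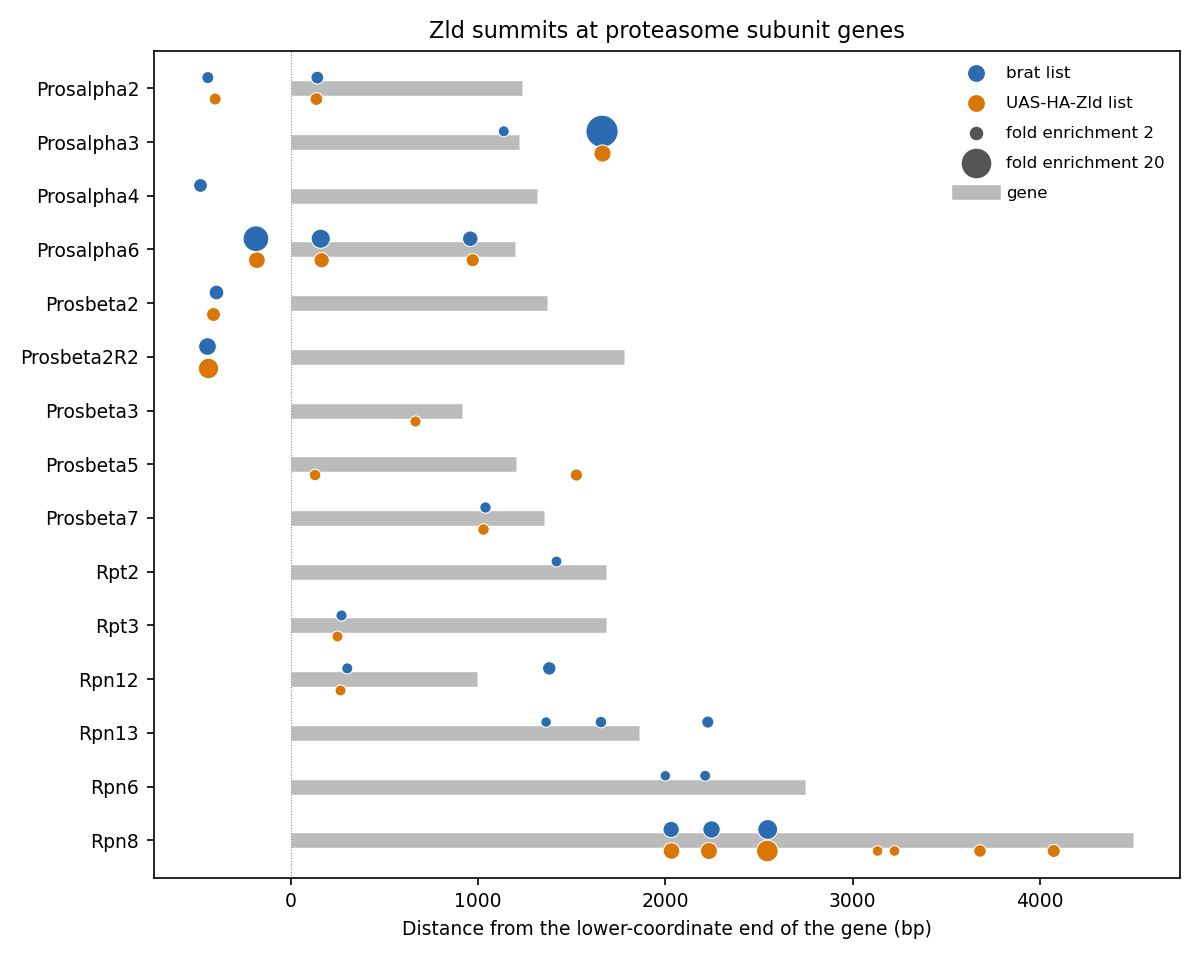
Positions of Zld summits at the 15 subunit genes with a summit in either list, in bp from the lower-coordinate end of each gene (grey bars; strand was not used); points are summits in the brat list (blue, above) and the UAS-HA-Zld list (orange, below), with area rising with fold enrichment. Large points at Prosalpha3, Prosalpha6 and Prosbeta2R2 lie outside the gene, and those at Rpn8 lie inside it.

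Of the 7 canonical beta ring genes, 2 had a summit in brat (28.6%, interval 8.22 to 64.1) and 4 in UAS-HA-Zld (57.1%, 25.0 to 84.2). These intervals cover the shares of all protein-coding genes, 34.0% and 32.3%. Of the catalytic subunit genes of the beta ring, Prosbeta2 had a summit in both lists, Prosbeta5 in UAS-HA-Zld alone, and Prosbeta1 in neither. Prosbeta2, the trypsin-like subunit (3L, 14999951 to 15001319), had a summit 402 bp outside the gene in brat and 416 bp in UAS-HA-Zld, with folds of 4.52 and 3.88. It lay inside mRpL39, a gene of the mitochondrial ribosome, 117 and 131 bp from its end. The scaled pileups were nearly equal, 10.05 and 10.2. Prosbeta5, the chymotrypsin-like subunit (2R, 10819978 to 10821178), had summits in UAS-HA-Zld alone. One lay inside the gene 129 bp from its end (fold 2.11, 155 fragments), and one lay 325 bp outside in Lsm10 (fold 2.56, 186 fragments), a gene of histone RNA processing. In brat the nearest summit to Prosbeta5 was 6284 bp away, and 2 peak numbers were absent around the gene there. For Prosbeta1, the caspase-like subunit, the nearest summit was 3245 bp away in brat and 3116 bp in UAS-HA-Zld.

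The canonical beta subunits without a cutting site had low folds or no summit. Prosbeta7 (3R, 5357012 to 5358364) had 1 summit inside the gene in each list, 11 bp apart, with folds of 1.98 and 2.08 and pileups of 129 and 194 fragments. Prosbeta3 (3R, 9005313 to 9006226) had 1 summit inside the gene in UAS-HA-Zld alone, with a fold of 1.83 and 139 fragments. In brat the nearest summit to Prosbeta3 was 7675 bp away, with 1 peak number absent around the gene. Prosbeta4 and Prosbeta6 had none, with the nearest summit 3501 and 6065 bp away in brat and 3513 and 6034 bp in UAS-HA-Zld. The duplicated gene Prosbeta2R2 was the strongest of the ring, through its summit near cno, with folds of 7.35 and 10.2 and pileups of 335 (300.1 to 373) and 686 fragments (636 to 739). Its scaled pileup was 1.60 times higher in UAS-HA-Zld than in brat.

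Of the 6 canonical ATPase genes, 2 had a summit in brat (33.3%, interval 9.68 to 70.0) and 1 in UAS-HA-Zld (16.7%, 3.0 to 56.4). Of all protein-coding genes 34.0% and 32.3% had one, within these intervals. Rpt3 (X, 11125101 to 11126785) had 1 summit inside the gene in each list, 22 bp apart, with folds of 1.83 and 1.69 and pileups of 89 (71.5 to 110) and 124 fragments (103 to 148). Rpt2 (3R, 23929873 to 23931558) had a summit inside the gene in brat alone, with a fold of 1.71, 67 fragments (51.9 to 85.1) and a −log10 q of 3.39. No peak number was absent around Rpt2, and the nearest UAS-HA-Zld summit was 2549 bp away. Both genes were near the lower limit of their lists, whose lowest folds were 1.34 in brat and 1.25 in UAS-HA-Zld. Rpt1, Rpt4, Rpt5 and Rpt6 had no summit in the window. Among these 4, Rpt4 and Rpt6 had one within 1606 bp in each list, Rpt1 had one 1220 bp away in UAS-HA-Zld, and for Rpt5 the nearest was 18580 bp away in brat and 22401 bp in UAS-HA-Zld.

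Of the 12 canonical Rpn genes, 4 had a summit in brat (33.3%, interval 13.8 to 60.9) and 2 in UAS-HA-Zld (16.7%, 4.70 to 44.8). The shares of all protein-coding genes, 34.0% and 32.3%, lie within these intervals. Rpn8, a lid subunit and the partner of the deubiquitinase Rpn11, is the longest of the subunit genes (2R, 24400028 to 24404527). It had 7 summits in UAS-HA-Zld, the most of all subunit genes there, and 3 in brat, as many as Prosalpha6 and Rpn13. The strongest had a fold of 9.58 in brat (544 fragments, 499 to 592) and 11.8 in UAS-HA-Zld (975 fragments, 915 to 1038), 2 bp apart. The 3 summits of brat recurred in UAS-HA-Zld within 14 bp, with scaled pileups 1.21, 1.14 and 1.40 times as high in UAS-HA-Zld. They lay where Rpn8 overlaps Slik, a kinase gene, and the strongest was 105 and 107 bp from the end of Slik. The other 4 UAS-HA-Zld summits lay inside Rpn8 and outside Slik, with folds of 1.48 to 3.19. One peak number was absent around Rpn8 in each list.

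The other Rpn genes with summits had low folds. Rpn12, a lid subunit (3L, 16583028 to 16584022), had a summit inside the gene in both lists, 40 bp apart, with folds of 1.79 and 1.73. In brat Rpn12 had a second, stronger summit 386 bp outside the gene (fold 3.47, 143 fragments), inside UQCR-C2, a gene of the respiratory chain. Rpn13, a ubiquitin receptor (2R, 13958545 to 13960404), had 3 summits in brat alone with folds of 1.46, 2.09 and 2.51. The strongest was 97 bp from the end of CtsL1, the gene of a lysosomal protease. In UAS-HA-Zld the summit nearest to Rpn13 lay 546 bp away, 90 bp from the end of AGO1, with a fold of 7.27, and 2 peak numbers were absent around the gene. Rpn6, a lid subunit (2R, 14750166 to 14752910), had 2 summits in brat alone with folds of 1.44 and 1.73 and a highest −log10 q of 3.72. No peak number was absent around Rpn6, and the nearest UAS-HA-Zld summit was 3082 bp away.

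Rpn1, Rpn2, Rpn3, Rpn5, Rpn7, Rpn9, Rpn10 and Rpn11 had no summit in the window. Rpn3 and Rpn10 were just outside it in both lists, at 562 and 724 bp in brat and 583 and 730 bp in UAS-HA-Zld, and Rpn9 was 900 bp from a summit in UAS-HA-Zld. The summit by Rpn3 had a fold of 4.83 in brat and its nearest gene end at CG10492, and the one by Rpn10 had a fold of 2.15 and its nearest end at COX8, a gene of the respiratory chain. Just inside the window were Prosbeta2, Prosbeta2R2 and Prosalpha4 in brat, at 402, 446 and 484 bp, and Prosbeta2, Prosalpha3 and Prosbeta2R2 in UAS-HA-Zld, at 416, 442 and 444 bp.

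**Figure D4:**
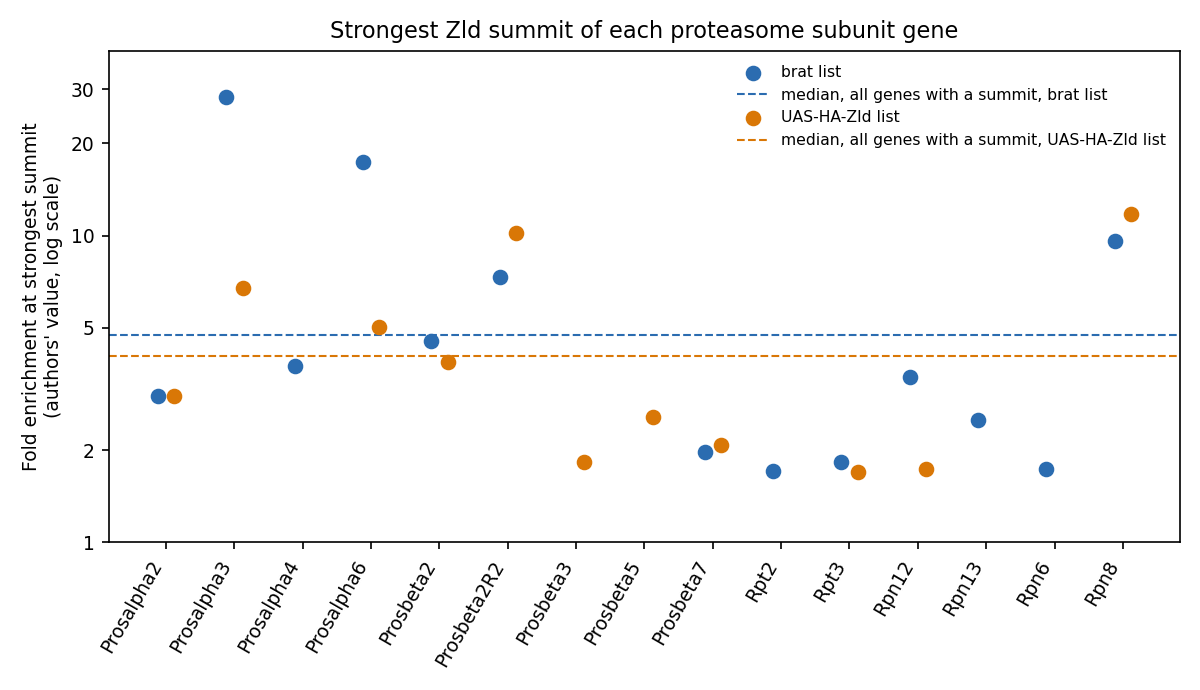
Fold enrichment (the authors' value, log axis) at the strongest summit of each of the 15 subunit genes with a summit, in the brat list (blue) and the UAS-HA-Zld list (orange); dashed lines are the medians over all protein-coding genes with a summit, 4.75 and 4.05. The points range from 1.71 to 28.2 in brat and from 1.69 to 11.8 in UAS-HA-Zld, and most lie below the lines.

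The strongest summit of a gene was taken as the one with the highest −log10 q. Its median fold was 3.47 over the 13 subunit genes in brat and 3.0 over the 11 in UAS-HA-Zld. Over all protein-coding genes with a summit it was 4.75 and 4.05, and over those in the length range of the subunit genes 4.01 and 3.40. Among the upper 20% of all summits by fold were 4 of the 13 in brat, Prosalpha3, Prosalpha6, Prosbeta2R2 and Rpn8, and 3 of the 11 in UAS-HA-Zld, the same without Prosalpha6. That upper 20% began near a fold of 7.01 in brat and between 6.26 and 6.36 in UAS-HA-Zld. Over all protein-coding genes with a summit, the strongest summit had a fold of 6.98 at the 67th percentile in brat. In UAS-HA-Zld it had 6.33 at the 73rd. The shares of subunit genes in the upper 20% were thus near those of all genes with a summit. By the summit with the highest fold in place of the highest −log10 q, Prosalpha6 was in the upper 20% in UAS-HA-Zld too, through its outer summit, and the count there was 4. For each of these the gene with the nearest end was a neighbour, CG10543, Npc1a, cno or Slik. The strongest summits whose nearest gene end was that of the subunit gene itself had folds of 1.71 to 3.01 in brat, at Prosalpha2, Prosbeta7, Rpt2 and Rpt3. In UAS-HA-Zld they had folds of 1.69 to 5.04, at Prosalpha2, Prosalpha6, Prosbeta3, Prosbeta7, Rpn12 and Rpt3.

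The strongest summit was thus nearest to the subunit gene's own end at 4 of 13 genes in brat (30.8%) and 6 of 11 in UAS-HA-Zld (54.5%). Over all protein-coding genes with a summit the shares were 70.8% and 71.7%, and in the length range of the subunit genes 63.1% and 66.0%. By the summit with the highest fold, the counts were 4 of 13 and 5 of 11 (45.5%), and the highest fold among those 5 was 3.0. With each summit given only to the gene with the nearest end, 8 subunit genes had a summit in each list (16.7%), and 5 genes had one in both. Of all protein-coding genes 28.1% had one in brat and 26.5% in UAS-HA-Zld. For those in the length range the shares were 20.4% and 19.4%. Beside the 5 of 48 subunit genes with one in both, the counts were 3027 of all 13922 protein-coding genes and 1147 of the 7973 in the length range. Counting only summits inside the gene gave 10 in brat (20.8%) and 8 in UAS-HA-Zld (16.7%), beside 27.2% and 26.0% of all protein-coding genes and 18.8% and 18.3% of those in the length range. The table of genes used here gives no strand, so starts and ends of genes were not separated.

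Most peaks at subunit genes recurred in the other list. In brat 10 of 15 such peaks overlapped a UAS-HA-Zld peak by 1 bp or more (66.7%), against 78.1% of all brat peaks. In UAS-HA-Zld 11 of 14 shared bases with a brat peak (78.6%), against 67.1% of all UAS-HA-Zld peaks. With at least 50% of each peak shared, or with summits within 200 bp, 10 of 15 were matched in brat. Under these rules 10 of 14 (71.4%) were matched in UAS-HA-Zld. The share of all peaks was taken with the 1 bp rule only. The counts are small, and their difference from all peaks was not tested. At 9 subunit genes there were 14 pairs of summits 2 to 40 bp apart. In 10 of these pairs the scaled pileup was higher in UAS-HA-Zld, and in 4 it was higher in brat, 3 at Prosalpha6 and 1 at Prosalpha3. Over all 7368 pairs at most 50 bp apart in the lists, 50.5% had the higher scaled pileup in brat, and 59.9% the higher fold. The direction depended on the measure. By fold, the pairs at Prosalpha2, Prosbeta2, Rpn12 and Rpt3, and the one 14 bp apart at Rpn8, were also higher in brat. Those at Prosbeta2R2 and Prosbeta7 and the others at Rpn8 stayed higher in UAS-HA-Zld. Pairs at 1 gene share their fragments and are not independent.

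The same ratio was taken at all 7368 pairs of summits at most 50 bp apart in the lists. Its median was 1.01, brat over UAS-HA-Zld, and its central 95% was 0.260 to 2.92. Of the 14 pairs at subunit genes, 1 lay outside this range, the summit beside Prosalpha3, at the 99.3rd percentile. The outer summit of Prosalpha6 was at the 94.8th, and the lowest pair, at Prosbeta2R2, was at the 19.4th. Without scaling, the median ratio was 0.790 and the percentiles did not change, since the scaling multiplies all ratios alike. No replicate spread was at hand for any of these ratios.

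**Figure D5:**
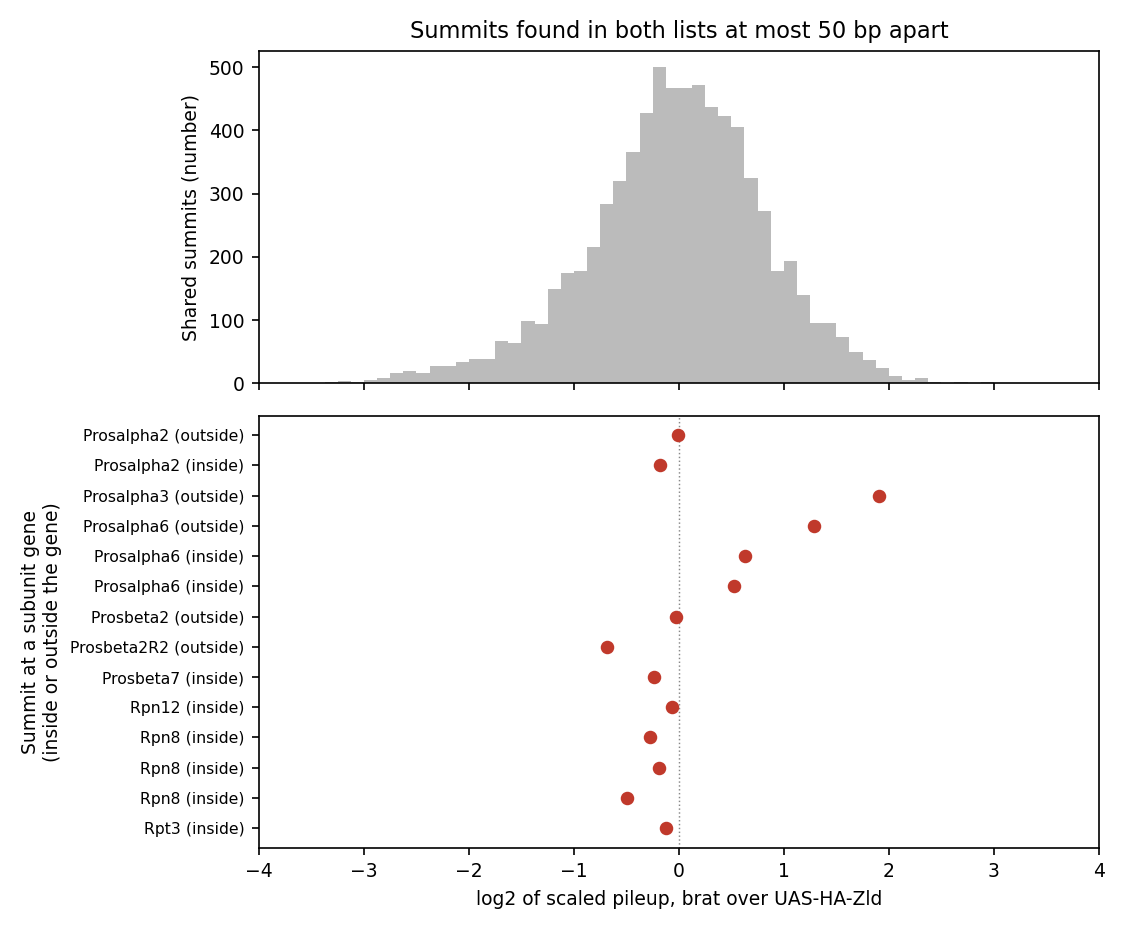
Log2 ratio of the scaled pileup in brat to that in UAS-HA-Zld at summits found in both lists at most 50 bp apart: above, a histogram over all 7368 pairs; below, 1 point for each of the 14 pairs at subunit genes. The pairs at Prosalpha3 and Prosalpha6 lie to the right (ratios of 3.74, 2.44, 1.55 and 1.44), and the other 10 lie at or below 0 on the log2 scale.

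Genes that work with the proteasome were covered by 5 lists with 30 genes, chosen by function. Of these, 21 had a summit in brat and 18 in UAS-HA-Zld, or 70.0% and 60.0%, beside 34.0% and 32.3% of all protein-coding genes. No test was made of the lists, and several of these genes are longer than the subunit genes. All 5 genes of ubiquitin supply had a summit in both lists: Uba1, the enzyme that activates ubiquitin, with highest folds of 10.6 (brat) and 11.1 (UAS-HA-Zld), and the ubiquitin genes Ubi-p5E (18.9 and 7.90), RpS27A (17.2 and 4.70), Ubi-p63E (5.25 and 3.67) and RpL40 (3.18 and 5.60). All 5 genes of proteasome gene regulation did too. For either list of 5 genes this is 100% (interval 56.6 to 100), beside 27.1% of all protein-coding genes with a summit in both lists. Among the regulation genes, cnc had 9 brat summits and 6 UAS-HA-Zld summits, with highest folds of 23.5 and 10.02. Keap1, which restrains cnc, had highest folds of 8.01 and 5.58. In brat the summits behind these values at cnc and Keap1 had their nearest gene end at CG46310 and kuk, and in UAS-HA-Zld at the genes themselves. The summit with the highest fold at RpS27A was nearest to Ip259 in both lists. The others, maf-S, Pngl and rngo, had highest folds of 1.75 to 2.96. At maf-S the summit with the highest fold was nearest to maf-S in brat and to CG11110 in UAS-HA-Zld. Its summit with the highest −log10 q was nearest to CG11110 in both lists.

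Of 7 assembly and associated factors, 5 had a summit in both lists (71.4%, interval 35.9 to 91.8), beside 27.1% of all protein-coding genes. These factors are the deubiquitinases Usp14 (highest folds 19.6 and 8.09) and Uch-L5 (4.53 and 2.17), the shuttle factors Ubqn (16.4 and 12.4) and Rad23 (8.48 and 5.73), and the activator REG (3.47 and 2.01). The summits with these folds at Usp14 and Uch-L5 were nearest to l(2)SH0834 and Jarid2 in both lists, and that at Ubqn was nearest to dome in brat. The assembly factor Pomp and the regulator PI31 had none. Of 5 genes of the TER94 segregase, which pulls ubiquitin-tagged proteins out of complexes, TER94 and Ufd1 had a summit in both lists, the one with the highest fold at Ufd1 nearest to NaPi-III, and p47, Npl4 and Plap had none.

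The COP9 signalosome, a complex built like the lid of the proteasome, had a summit at 4 of 8 genes in brat (50.0%, interval 21.5 to 78.5) and at 1 in UAS-HA-Zld (12.5%, 2.24 to 47.1), beside 34.0% and 32.3% of all protein-coding genes. CSN4 had one in both lists, and alien, CSN3 and CSN8 in brat alone, which is 37.5% (13.7 to 69.4) beside 6.92% of all protein-coding genes. CSN8 had 4 summits in brat with a highest fold of 6.46, the strongest nearest to the end of the ribosomal protein gene RpS13, and no peak number was absent around it in either list. At alien and CSN3 the highest folds in brat were 2.55 and 1.48, and 2 and 6 peak numbers were absent around them in UAS-HA-Zld. In brat the summits behind the highest folds at alien and CSN4 were nearest to CG18661 and CG8726. At CSN3 in brat, and at CSN4 in UAS-HA-Zld, the nearest end was that of the gene itself. CSN1b, CSN5, CSN6 and CSN7 had no summit in either list.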

How the data were processed

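CUT&RUN peak lists from 4 brain samples were used, 1 deposited list per condition, with groups taken from the sample titles. The submitters' processing notes name Bowtie2, MACS2, deepTools 3.5.1 and build dm6; pooling of replicates, the control and later filters are not given in the sources used. Each deposited list gives the authors' integer score, the fold enrichment (a ratio) at each summit, and its p-value and q-value as −log10. The score was not used further. Each summit is the peak start plus the deposited offset, a position in bp. From the deposited fold and −log10 p-value, pileup and background were solved as a whole-number pileup under a Poisson model with 1 added to each (relative tolerance 0.0001), and the solver was checked on simulated data. The genome-wide background is the lowest background in a list.

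Genes, names and coordinates came from a RefSeq table of Release 6 (the same assembly as dm6) without strand. Scripts used Python 3.11.15, pandas 2.3.3, scipy 1.17.1 and statsmodels 0.14.6. Intervals (Wilson for shares, exact Poisson for pileups) cover counting error only, and fragments carry no molecular identifiers. A gap in the numbering was looked for between the last peak before and the first peak after the gene with 500 bp on either side. All subunit genes are named, with values for those with a summit; pathway genes came from 5 lists, in which 2 of 30 genes were found under another symbol. The subunit genes, lists and tests were chosen with earlier results of these data known. Planned motif counts in promoters were not run, since no genome sequence was used here.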

Additional observations from a re-analysis of the deposited data

How the results depend on the processing

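Of 113 recomputed values, 84 stayed within 1.5 times the reported one. With a −log10 q of at least 5, brat-only genes numbered 2 of 48, beside 987 of all 13922 protein-coding genes. With at least 10, UAS-HA-Zld-only genes numbered 1, beside 704 of all protein-coding genes. A window of 1 kb gave 2 brat-only genes, beside 925 of all protein-coding genes. A window of 2 kb gave 20 subunit genes in brat (41.7%, beside 43.4% of all protein-coding genes) and 23 in UAS-HA-Zld (47.9%, beside 43.1%). It gave 18 in both, 2 in brat alone and 5 in UAS-HA-Zld alone. Over all 13922 protein-coding genes these counts were 5098, 951 and 897. The window gave 19 of 32 canonical genes in UAS-HA-Zld, and of 16 duplicated genes 2 in brat and 4 in UAS-HA-Zld. Giving each summit to the nearest gene end left 8 in brat and 5 in both, beside 3906 and 3027 of all protein-coding genes. It left 0 duplicated genes in either list, and summits inside the gene also left 0 duplicated genes in either list. Whole peak intervals gave 2 brat-only genes, beside 931 of all protein-coding genes. Counting all summits in place of the strongest put 15 of 23 inside the gene in brat and 15 of 21 in UAS-HA-Zld. The strongest were inside at 6 of 13 and 7 of 11 genes, so these counts have unlike totals.

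Taking the summit with the highest fold in place of the highest −log10 q was chosen after the data were seen. Leaving out genes beside absent peak numbers, an alternative also chosen after the data were seen, left 14 subunit genes, of which 7 had a summit in brat, 5 in UAS-HA-Zld, 5 in both, 2 in brat alone (Rpn6 and Rpt2) and 0 in UAS-HA-Zld alone. All 7 and all 5 were canonical (of 12), and 0 of 2 duplicated genes had one in either list. Fewer genes enter these counts by construction. Left out were 26 of the 33 genes with no summit in either list, and 4 of the 9 with one in both. Also left out were 2 of the 4 with one in brat alone and 2 of the 2 with one in UAS-HA-Zld alone. Genes with a summit were thus kept more often than genes with none. No share of all protein-coding genes was taken under this setting. For the other settings the cause was not tested.

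No paired analysis was possible because the lists hold no values per replicate. Leaving out a replicate, the replicate block and the motif alternative were not run.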
